A study of Homo sapiens with 12 samples.

Results

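LIN28B, IGF2BP1, IGF2BP2, IGF2BP3, HMGA1, HMGA2 and DICER1 were followed in Ewing sarcoma cells whose transcription had been stopped. The 7 genes were chosen by symbol, as genes tied to the let-7 microRNAs. All 7 have a row among the 26334 genes of the deposited count table, and all 7 were among the 12032 genes averaging 10 counts or more over the libraries, which entered the tests. The cells, named shA673-1c in the labels and tagged CTL in all 12 column names, derive from A673, an established Ewing sarcoma line. They were grown with blasticidin and zeocin and given 5 µM actinomycin D, which blocks transcription by binding DNA. RNA was taken at 0, 1, 2 and 4 h, with 3 replicates at each time and 12 poly(A)-selected libraries in all. The 0 h samples serve as the untreated level, and no vehicle-treated time course was among the samples used here.

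The let-7 microRNAs are short RNAs that accumulate as cells differentiate and that repress mRNAs carrying a match to their seed. LIN28B binds let-7 precursors and blocks their maturation, and its own mRNA is a let-7 target, so that LIN28B and let-7 repress each other. The IGF2BP proteins bind mRNAs in the cytoplasm and are known for stabilising them, and the HMGA proteins are small chromatin proteins that bind AT-rich DNA. These genes are called oncofetal because they are active in the embryo, low in most adult tissues and active again in many tumours. DICER1 differs in kind: it is the ribonuclease that cuts microRNA precursors, let-7 included, into their mature form.

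The let-7 sequences and the matches to their seed in these mRNAs are shown first, because the genes were chosen for their ties to let-7. The RefSeq table used here (GRCh38.p14) lists 9 mature let-7 and miR-98 sequences of the 5′ arm, each 22 bases long, and all 9 share 1 seed, bases 2 to 8, printed in capitals below for 4 of them.
hsa-let-7a-5p: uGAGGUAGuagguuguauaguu
hsa-let-7b-5p: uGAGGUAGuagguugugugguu
hsa-let-7d-5p: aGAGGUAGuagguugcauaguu
hsa-miR-98-5p: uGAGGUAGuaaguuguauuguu

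The match to this seed in an mRNA is the 7-base motif CTACCTC, searched on the mRNA strand of 1 canonical transcript per gene in GENCODE v44 on GRCh38. It occurs in the 3′ untranslated region (UTR) of 1224 of 10817 tested genes, or 11.3%. LIN28B, IGF2BP1 and HMGA2 each hold 4 copies in the 3′ UTR, and 10 of the 10817 genes hold 4 or more. IGF2BP2, IGF2BP3 and HMGA1 hold 1 copy each. DICER1 has 0 copies in its 3′ UTR of 4270 bases and 4 in its coding sequence, where 11 of the genes have 4 or more and 14.7% have any. One site of each gene is printed 5′ to 3′ as a DNA sequence of the mRNA strand, with the motif in capitals. For LIN28B, IGF2BP1 and HMGA2 it is the first 3′ UTR site, and for DICER1 it is one of the coding sites followed by an A.
LIN28B, chr6:105078814-105078834, plus strand, 3′ UTR: ccggttgcaaagtCTACCTCa
IGF2BP1, chr17:49051063-49051083, plus strand, 3′ UTR: tgtgcgaagtaaaCTACCTCa
IGF2BP2, chr3:185644220-185644240, minus strand, 3′ UTR: cacacagaagaagCTACCTCa
IGF2BP3, chr7:23311795-23311815, minus strand, 3′ UTR: catttttactcaaCTACCTCa
HMGA1, chr6:34245831-34245851, plus strand, 3′ UTR: ctctgttcacaaaCTACCTCt
HMGA2, chr12:65963300-65963320, plus strand, 3′ UTR: caacgttcgatttCTACCTCa
DICER1, chr14:95103640-95103660, minus strand, coding: aatgctaacaaatCTACCTCa

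The base after the motif is A in each printed site other than that of HMGA1. Over all 3′ UTR copies, an A follows in 2 of 4 in LIN28B, 3 of 4 in IGF2BP1, 1 of 4 in HMGA2 and 0 of 1 in HMGA1. A motif is a match of letters and was not tested as a site of let-7 action. Mature microRNAs were not measured in these poly(A) libraries.

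Library totals ranged from 9147018 to 11194705 counts. Ewing sarcoma markers were present in all 12 libraries, with a summed level of 4602 to 5920 CPM, the count scaled to the library size. Most of the sum came from CAV1 and CCND1, with means of 2489 and 1676 CPM at 0 h. NR0B1 had 38.1 CPM and NKX2-2 7.08 CPM. Of the 9 markers, CD99, a surface protein used to diagnose the tumour, was listed at 0 in every library. The gene lies in a pseudoautosomal region, which is annotated on both X and Y, and how reads matching both copies were counted is not given in the sources used here, so the 0 does not show that the mRNA was absent. The 5 endothelial markers summed to at most 1.31 CPM in any library. The blood marker PTPRC reached at most 0.298 CPM, and the epithelial markers EPCAM and CDH1 together reached at most 0.783 CPM.

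At 0 h, before transcription was stopped, the chromatin gene HMGA1 stood highest of the 7 and LIN28B lowest. Levels of different genes were set side by side as CPM per kilobase of the canonical transcript. HMGA1 had 169 ± 9.05 CPM per kb (SD, n = 3), at the 97.1th percentile of 11213 tested genes with a transcript length. HMGA2 followed at 46.1 ± 2.41 CPM per kb. The 3 IGF2BP genes lay close together, IGF2BP1 at 32.6 ± 1.71, IGF2BP3 at 29.2 ± 1.47 and IGF2BP2 at 23.9 ± 1.91 CPM per kb. DICER1 had 17.3 ± 2.23 CPM per kb. LIN28B had 12.57 ± 0.0244 CPM per kb, at the 57.9th percentile. This SD is smaller than counting error alone gives for its 698, 711 and 770 counts, so the level is known less exactly than it shows.

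The ranges of the 3 libraries did not overlap between neighbours in this order. The closest pair was IGF2BP1 and IGF2BP3, where the lowest IGF2BP1 library had 31.04 CPM per kb and the highest IGF2BP3 library 30.5. The ranks below HMGA1 rest on the length used. Divided by all exons of the gene merged, HMGA2 went from rank 2 to rank 5, at 12.6 CPM per kb, because its merged exons span 15070 bases against 4117 in the canonical transcript. On that length DICER1, at 8.09 CPM per kb, was below LIN28B, at 11.5. No test was made of these levels, since 3 against 3 libraries cannot go below a p of 0.1 in an exact test.

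**Figure D1:**
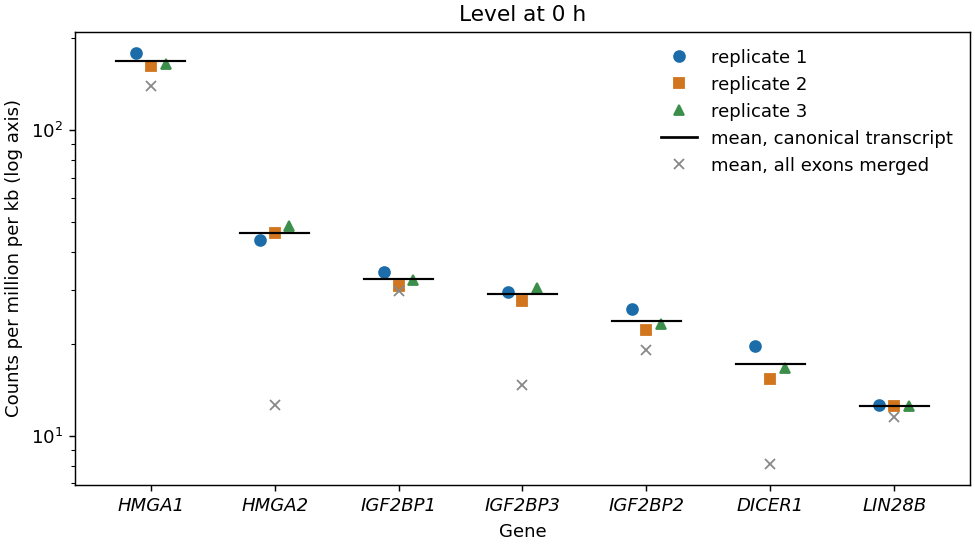
Level of each gene at 0 h in CPM per kb (log axis), with 1 symbol per replicate, a line at the mean for the canonical transcript, and a cross at the mean for all exons merged. HMGA1 lies above the other genes on either length, while the cross for HMGA2 falls to 12.6 CPM per kb.

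After actinomycin D, LIN28B, IGF2BP1 and DICER1 fell, HMGA1 rose, and IGF2BP2, IGF2BP3 and HMGA2 did not pass the test. A course was first summarised as a slope, the log2 change per hour over 0 to 4 h, from edgeR's quasi-likelihood test with Benjamini-Hochberg adjustment over all tested genes and a threshold of 0.05. By this test, which had no replicate block, 32.1% of the tested genes fell and 30.7% rose, beside 3 and 1 of the 7. With the replicate number added to the fit as a block, IGF2BP2 also fell (edgeR adjusted p = 0.00527). In that fit 34.8% of the tested genes fell and 36.2% rose. The median slope of all tested genes was 0.0093 log2 per hour. Counts were scaled by TMM, which sets the bulk of genes to no change. A slope is therefore a change relative to the rest of the mRNA, and a rise does not mean that more of an mRNA was made. In bulk RNA, fewer cells and less RNA per cell cannot be told apart.

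**Figure D2:**
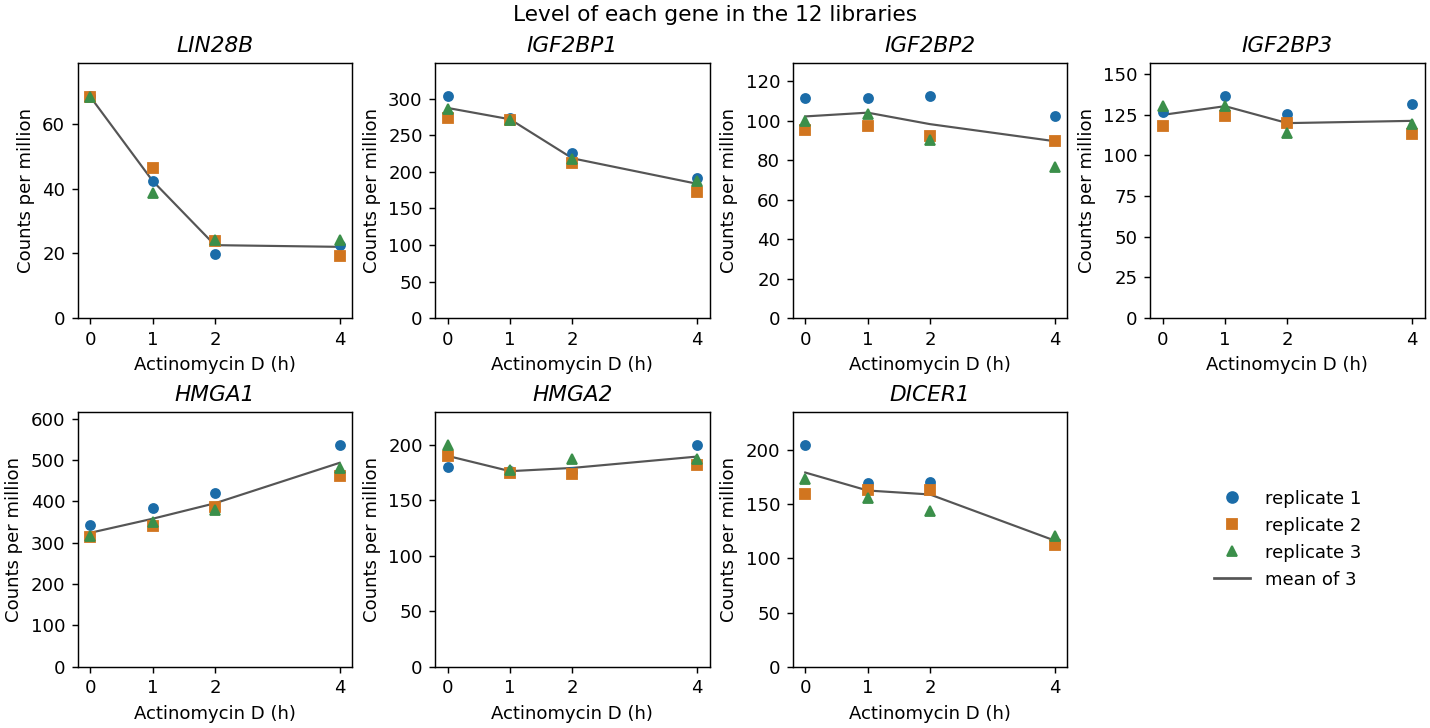
Level of each gene in CPM (vertical axis, from 0) against hours of actinomycin D, with 1 symbol per replicate and a line through the means of 3. LIN28B drops from 68.5 to 22.6 CPM by 2 h and lies between 19.3 and 24.2 CPM at 4 h, while HMGA1 climbs from 324 to 493 CPM.

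LIN28B, the RNA-binding blocker of let-7 maturation, had the steepest slope of the 7. Its levels at 0 h were 68.6, 68.5 and 68.3 CPM in replicates 1 to 3. At 1 h they were 42.5, 46.3 and 38.5 CPM. At 2 h they were 19.7, 23.9 and 24.1 CPM, and at 4 h 22.6, 19.3 and 24.2 CPM. The 0, 1 and 2 h groups did not overlap, whereas the 2 and 4 h groups did. The fitted level at 1 h was 62.0% of that at 0 h (95% confidence interval 53.9 to 71.2%, edgeR adjusted p = 0.00135). At 2 h it was 33.0% (28.4 to 38.2%, adjusted p = 6.37e-08), and at 4 h 32.1% (27.7 to 37.3%, adjusted p = 9.02e-09).

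Both steps of LIN28B that passed the test lay within the first 2 h. From 1 to 2 h the level dropped by 0.91 on the log2 scale (SE 0.10, edgeR adjusted p = 3.24e-05). From 2 to 4 h the difference was -0.04 (95% interval -0.27 to 0.19, adjusted p = 0.826). LIN28B was the only one of the 7 to depart from a straight line (edgeR adjusted p = 0.00127), a call made for 2.70% of the tested genes. The slope over the whole course was -0.42 log2 per hour (SE 0.056, adjusted p = 5.38e-06). It corresponds to a half-life of 2.36 h (95% interval 1.84 to 3.26 h) relative to the rest of the mRNA. This value and its interval assume a straight course, from which LIN28B departed. From the 0, 1 and 2 h libraries alone the half-life was 1.28 h (1.12 to 1.48 h).

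Fits without replicate 1 or 2 called few genes at 1 h or for departure from a line. By slope they called 6636 and 6436 genes. Without replicate 1 or without replicate 2, the drop of LIN28B at 1 h was about as large, at -0.69 and -0.76 log2, with an edgeR adjusted p of 0.0813 and 0.0756, and 33 and 1 genes of the whole table were called at 1 h. The departure from a line likewise had an adjusted p of 0.173 and 0.0858, in fits that called 12 and 0 genes of the whole table. The step from 2 to 4 h depended on the scaling, and relative to the housekeeping genes GAPDH and ACTB it was -0.34 log2 (adjusted p = 0.0472).

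The 3 IGF2BP genes, which encode related mRNA-binding proteins, did not share 1 course. IGF2BP1 had 303, 273 and 285 CPM at 0 h and 273, 271 and 271 CPM at 1 h. It had 226, 212 and 217 CPM at 2 h and 191, 172 and 187 CPM at 4 h. The groups at 0 and 1 h overlapped at 273 CPM, and the later groups lay below them without overlap. Its slope was -0.17 log2 per hour (SE 0.016, edgeR adjusted p = 1.44e-07), a half-life of 5.85 h (4.88 to 7.31 h) under TMM, and 3.24 h scaled to GAPDH and ACTB.

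IGF2BP1 was at 94.6% of the 0 h level at 1 h (86.9 to 103%), which did not pass the test (edgeR adjusted p = 0.615). It was at 76.0% at 2 h (adjusted p = 0.000116) and at 63.9% at 4 h (adjusted p = 3.33e-07). Both later steps passed on their own, from 1 to 2 h with -0.32 log2 (adjusted p = 0.00161) and from 2 to 4 h with -0.25 (adjusted p = 0.00484). Its departure from a line had an edgeR adjusted p of 0.455, and of 0.00932 with a replicate block.

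IGF2BP2 went from 111, 95.5 and 99.7 CPM at 0 h to 103, 89.9 and 76.3 CPM at 4 h. The groups overlapped, and replicate 3 at 4 h was the lowest of the 12 libraries. The slope was -0.053 log2 per hour (SE 0.025, edgeR adjusted p = 0.0796), with a negative value in each of the 3 replicates. Without replicate 1 it was -0.066 and passed the test (edgeR adjusted p = 0.0237), and without replicate 3 it was -0.033 (adjusted p = 0.295). In the fit with a replicate block the adjusted p was 0.00527, and for 4 h against 0 h it was 0.00243 with the block and 0.149 without. From 2 to 4 h the blocked difference was -0.13 log2 (adjusted p = 0.0465, and 0.388 without the block).

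IGF2BP3 had 127, 118 and 130 CPM at 0 h and 132, 113 and 119 CPM at 4 h, and these groups overlapped. Its slope was -0.018 log2 per hour (SE 0.017, 95% interval -0.054 to 0.018, edgeR adjusted p = 0.361). From 1 to 2 h the difference was -0.12 log2 (adjusted p = 0.279, and 0.0353 with the block). IGF2BP3 shares exonic sequence on the opposite strand with MALSU1, a mitochondrial ribosome assembly factor with a mean of 199 counts. Whether strand was used in counting is not given in the sources used here, so reads of the 2 genes cannot be told apart where they overlap.

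The HMGA genes, which encode related AT-hook chromatin proteins, also differed. HMGA1 had 344, 312 and 315 CPM at 0 h, 384, 340 and 349 CPM at 1 h, 421, 386 and 378 CPM at 2 h, and 536, 461 and 481 CPM at 4 h. Every library at 2 and 4 h lay above every library at 0 h. The slope was 0.15 log2 per hour (SE 0.016, edgeR adjusted p = 4.94e-07). The level was 122% of that at 0 h at 2 h (110 to 136%, adjusted p = 0.00752) and 152% at 4 h (137 to 169%, adjusted p = 5.37e-06).

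The rise of HMGA1 was of like size in each hour. It was 0.14 log2 in the first hour (edgeR adjusted p = 0.398) and 0.14 in the second (adjusted p = 0.206), and with the block these had an adjusted p of 0.0014 and 0.000402. From 2 to 4 h it was 0.32 log2 (adjusted p = 0.0041). Without replicate 2 the rise at 2 h was 0.28 log2 with an adjusted p of 0.0746. Scaled to GAPDH and ACTB, its slope was 0.013 log2 per hour and did not pass the test (adjusted p = 0.478).

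HMGA2 lay between 174 and 199.6 CPM in all 12 libraries. It had 179.7, 189.9 and 199.6 CPM at 0 h, 177, 174 and 177 CPM at 1 h, 176, 174 and 187 CPM at 2 h, and 199.6, 181 and 187 CPM at 4 h. The slope was 0.0053 log2 per hour (95% interval -0.027 to 0.038, edgeR adjusted p = 0.781). At 4 h its fitted level was 99.7% of that at 0 h (91.4 to 109%). Its 3′ UTR carries as many let-7 motifs as those of LIN28B and IGF2BP1, the genes with the steepest falls among the 7. The motifs were counted in 1 canonical transcript per gene, and any part of them in these courses was not tested.

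DICER1, the microRNA-processing ribonuclease, fell over the course, with its lowest levels at 4 h. It had 205, 159 and 174 CPM at 0 h, 169, 164 and 155 CPM at 1 h, and 171, 163 and 143 CPM at 2 h. At 4 h it had 116, 113 and 121 CPM, below every earlier library. The level at 2 h was 88.7% of that at 0 h (77.9 to 101%, edgeR adjusted p = 0.156, and 0.00675 with the block). At 4 h it was 65.0% (57.0 to 74.1%, adjusted p = 3.11e-05). The step from 2 to 4 h was -0.45 log2 (adjusted p = 0.00176) and that from 1 to 2 h -0.033 (adjusted p = 0.856). The departure from a line did not pass (edgeR adjusted p = 0.726), so a fall later than a straight course was not shown. The slope of -0.15 log2 per hour (SE 0.023, adjusted p = 2.02e-05) gives a half-life of 6.58 h (5.00 to 9.59 h) under TMM, and 3.46 h scaled to GAPDH and ACTB.

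Set against the whole table, the counts of members followed the times. At 1 h against 0 h, LIN28B alone fell and 0 of 7 rose, where 2.24% of the tested genes fell and 0.349% rose. At 2 h against 0 h, LIN28B and IGF2BP1 fell and HMGA1 rose, where 19.4% fell and 10.8% rose. At 4 h against 0 h, 3 fell and 1 rose, where 31.6% fell and 28.7% rose. These 3 comparisons share the 0 h libraries. Of the members above 0 h at 1 h, 0 had an unadjusted edgeR p under 0.05, and DESeq2 also called 0. Between neighbouring times, 2 of 7 fell and 0 rose from 1 to 2 h (12.5% and 3.76% of the tested genes). For that step too, 0 risers had an unadjusted p under 0.05 and DESeq2 called 0. From 2 to 4 h, 2 fell and 1 rose (18.3% and 12%).

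Scaling moved these slopes together. Scaled to GAPDH and ACTB, the median slope of all tested genes was -0.13 log2 per hour. The members shifted with it, and 6 of 7 then fell and 0 rose, where 64.2% of the tested genes fell and 0.931% rose. On that scaling the half-life was 1.80 h (95% interval 1.49 to 2.26 h) for LIN28B, 3.24 h (2.85 to 3.75 h) for IGF2BP1 and 3.46 h (2.94 to 4.2 h) for DICER1. The LIN28B value assumes a straight course, from which LIN28B departed on this scaling too (edgeR adjusted p = 0.00661). Relative to the median of all genes the slopes hardly moved, as must be when a change of scaling shifts all genes nearly alike. That of LIN28B was -0.43 under TMM, library totals and GAPDH plus ACTB alike, that of IGF2BP1 -0.18, that of DICER1 -0.16 and that of HMGA1 0.14. ACTB itself rose under TMM, with a slope of 0.12 log2 per hour.

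**Figure D3:**
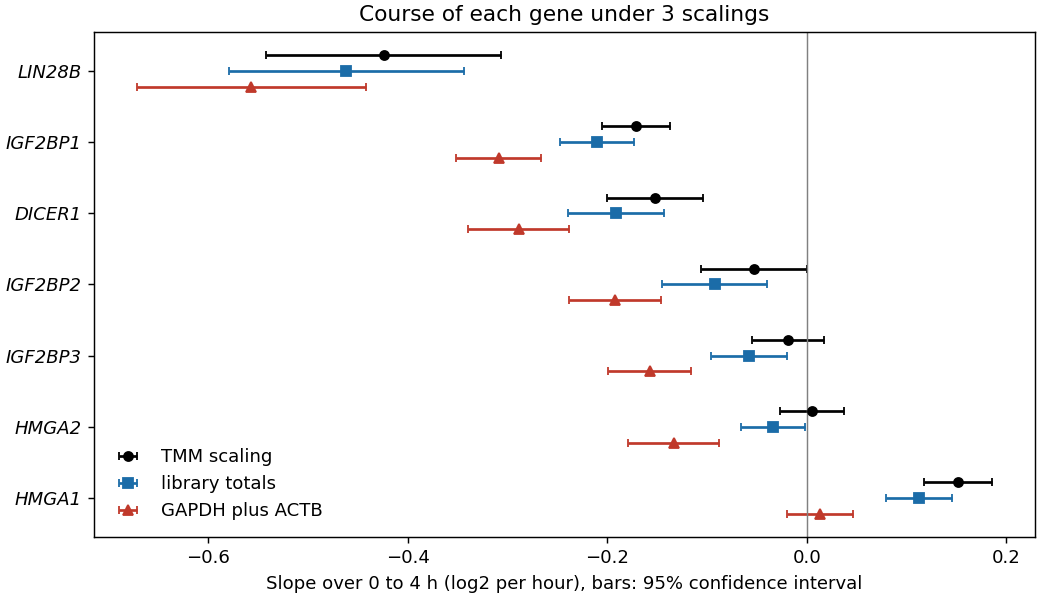
Slope of each gene in log2 per hour with its 95% confidence interval, under TMM scaling (circles), library totals (squares) and GAPDH plus ACTB (triangles). The 7 genes keep their order while all shift to the left, and HMGA1 moves from 0.15 under TMM to 0.013 under GAPDH plus ACTB. A change of scaling shifts all genes nearly alike, so the kept order is no separate result.

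A comparison that no scaling can move is the ratio of 2 of these mRNAs within each library. The slope over time of the log2 ratio was tested for all 21 pairs by a two-sided exact permutation test over the 369600 assignments of the libraries to the times, with Benjamini-Hochberg adjustment over the 21 pairs. The course differed in 17 of the 21. Pairs of other genes were not tested, and 62.8% of all tested genes had a slope past the threshold under TMM. LIN28B fell relative to each of the other 6. The slope was -0.56 log2 per hour against HMGA1 (exact permutation adjusted p = 0.000135), and -0.24 against IGF2BP1 (adjusted p = 0.00887). It was -0.26 against DICER1 (adjusted p = 0.0193), where the slope was -0.22 without replicate 2 (exact adjusted p = 0.127) and -0.27 without replicate 3 (adjusted p = 0.0887). Against IGF2BP1 and IGF2BP2 it was -0.21 and -0.31 without replicate 2 (exact adjusted p = 0.0792 and 0.0594).

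IGF2BP1 parted from the other IGF2BP genes, and the HMGA genes from each other. IGF2BP1 fell relative to IGF2BP3 by 0.15 log2 per hour (exact permutation adjusted p = 1.42e-05). It fell relative to IGF2BP2 by 0.12 log2 per hour (adjusted p = 0.00316, and without replicate 2 by 0.096 with 0.0594). HMGA1 rose relative to HMGA2 by 0.15 log2 per hour (exact permutation adjusted p = 0.000104). The sign was the same in all 3 replicates for each of these pairs. The ratio of HMGA1 to DICER1 rose by 0.30 log2 per hour, with an unadjusted p of 2.71e-06 that is the smallest the assignments can give (exact permutation adjusted p = 1.42e-05).

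For 4 pairs the exact test did not pass. IGF2BP1 and DICER1 had a ratio slope of -0.019 log2 per hour (least-squares SE 0.027, exact permutation adjusted p = 0.497), and the replicates differed in sign. The slope was -0.036 (SE 0.021, adjusted p = 0.139) for IGF2BP2 against IGF2BP3 and -0.024 (SE 0.021, adjusted p = 0.286) for IGF2BP3 against HMGA2. For IGF2BP2 against HMGA2 it was -0.060 (SE 0.034, adjusted p = 0.124), and with the times permuted within replicate numbers, as a block, the adjusted p was 0.0403. The ratio of IGF2BP2 to DICER1, which rose by 0.097 log2 per hour (exact permutation adjusted p = 0.00856), was 0.062 without replicate 1 (adjusted p = 0.109) and 0.093 without replicate 2 (adjusted p = 0.0594).

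**Figure D4:**
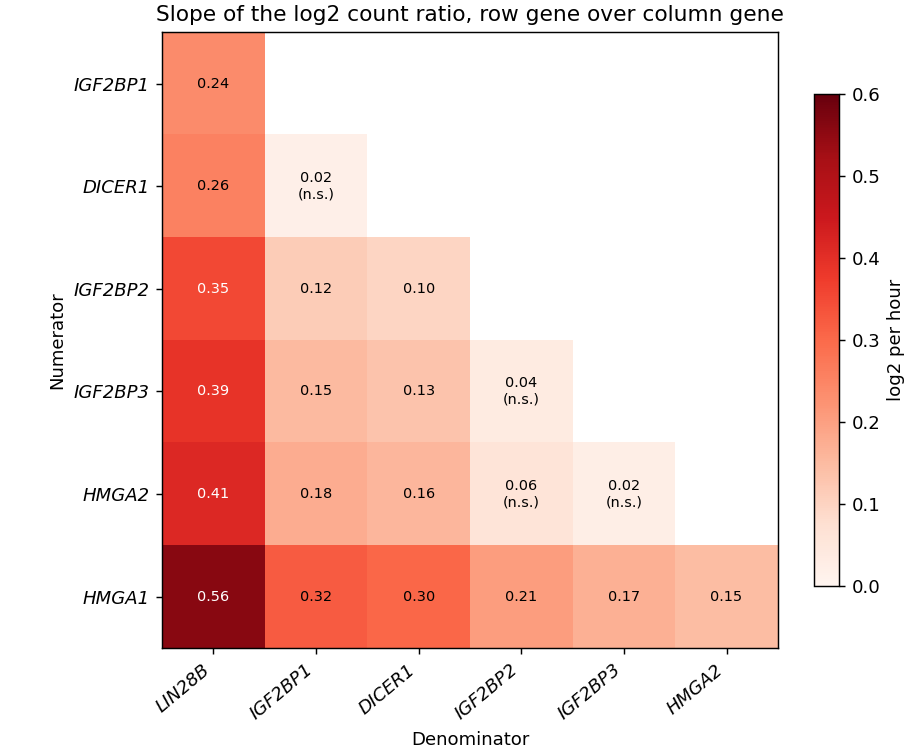
Slope over time of the log2 count ratio of the row gene to the column gene, in log2 per hour (colour and number), for the 21 pairs, with n.s. where the exact permutation adjusted p was at least 0.05. The column of LIN28B holds the steepest ratio, 0.56 for HMGA1 over LIN28B, and 4 cells are marked n.s.

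The genes around these 7 were taken from 5 lists, all chosen with earlier results of these data known. Of 23 tested genes of let-7 biogenesis and decay, 7 fell, 8 rose and 8 did not pass, against 32.1% and 30.7% of all tested genes. Their median slope was 0.010 log2 per hour. The 2 steepest falls were ZC3H12A, a ribonuclease that cleaves microRNA precursors (-0.28 log2 per hour, edgeR adjusted p = 0.00815), and TNRC6B, a scaffold of the silencing complex (-0.28, adjusted p = 1.51e-08). ZC3H12A had 9 to 37 counts a library. The 2 highest slopes past the threshold were those of XPO5, the exporter of microRNA precursors (0.086, adjusted p = 0.000387), and HNRNPA1, which binds the let-7a primary transcript (0.078, adjusted p = 0.0299). LIN28A, the paralogue of LIN28B, had 0 counts in all 12 libraries, which allows a level of up to 0.0247 CPM over their 121373427 counts, for counting error only.

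Among other known let-7 targets, 23 of 37 tested genes fell, or 62.2%, and 6 rose, where 32.1% and 30.7% of all tested genes did. The median slope of this list was -0.11 log2 per hour, beside 0.0093 for all tested genes, and no test compares the 2. This list, too, was chosen with earlier results known, and 3′ UTR length was not taken into account. The steepest were IRS2, an insulin receptor substrate (-0.64, edgeR adjusted p = 1.38e-09), and COIL, the Cajal body protein (-0.55, adjusted p = 3.00e-09). The highest slopes past the threshold were those of SALL4, an embryonic transcription factor at 6 to 25 counts a library (0.30, adjusted p = 0.00442), and HRAS, a RAS GTPase (0.11, adjusted p = 0.00206). MYCN, a transcription factor of embryonal tumours, was below the filter, with 9, 10 and 14 counts at 0 h and 0, 0 and 1 at 4 h.

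Of 6 host transcripts of let-7 genes, 4 had a row and 2 passed the filter. MIR100HG fell (-0.18 log2 per hour, edgeR adjusted p = 0.02) on 24 to 63 counts a library, and MIRLET7BHG, on 20 to 47 counts, had a slope of 0.083 (adjusted p = 0.38). The call for MIR100HG was lost without replicate 2 or replicate 3.

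Of 13 tested partners and targets of the IGF2BP proteins, 8 rose and 1 fell, where 30.7% and 32.1% of all tested genes did. The median slope was 0.062 log2 per hour. The highest slopes past the threshold were those of YBX1, an mRNA-binding cold shock protein (0.15, edgeR adjusted p = 5.04e-08), and ACTB, whose mRNA is the classical cargo of IGF2BP1 (0.12, adjusted p = 0.00042). BTRC, a ubiquitin ligase subunit whose mRNA IGF2BP1 binds, fell (-0.20, adjusted p = 1.17e-06), and with the block 2 genes of the list fell. IGF2, the growth factor that names the family, had 1 count in 1 library.

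Among 15 further HMG chromatin proteins, 6 rose and 4 fell, where 30.7% and 32.1% of all tested genes did. The median slope was 0.0079 log2 per hour. HMG20B (0.14, edgeR adjusted p = 0.000177) and HMGN2 (0.11, adjusted p = 0.000839) had the highest slopes past the threshold, and HMGXB4 (-0.47, adjusted p = 1.28e-08) the lowest. Scaled to GAPDH and ACTB, 0 genes of each list rose, and with library totals 1 gene of let-7 biogenesis and decay, 3 targets, 5 partners and 3 HMG genes rose. Over all tested genes 0.931% and 18.7% rose on these scalings. Many of these genes, such as HNRNPA1, YBX1 and HMGN2, and HMGA1 itself, have processed pseudogenes, and how reads shared with them were counted is not given in the sources used here.

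**Figure D5:**
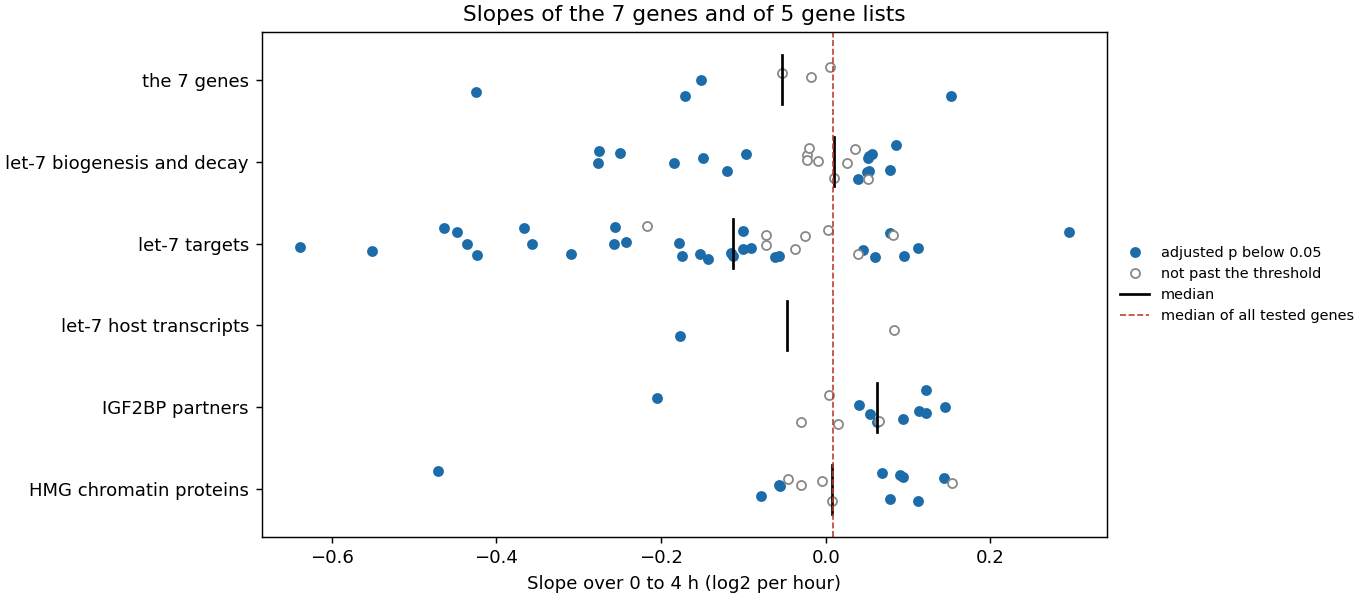
Slope over 0 to 4 h in log2 per hour for the 7 genes and for the tested genes of 5 lists, filled where the edgeR adjusted p was below 0.05, with a bar at each median and a dashed line at the median of all tested genes. The let-7 targets reach from -0.64 to 0.30, with a median of -0.11, and the IGF2BP partners have a median of 0.062.

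Over the whole table, genes were also grouped by the number of let-7 motifs in the 3′ UTR. Genes with 0 motifs (9593) had a median slope of 0.013 log2 per hour. It was -0.024 for 1080 with 1, -0.051 for 118 with 2 and -0.024 for 26 with 3 or more. The share that fell was 31.8%, 39.1%, 46.6% and 42.3%. The median length of the 3′ UTR rose along with it, from 1274 to 2970, 5166 and 5692 bases, and its part in these values was not tested. The 3 members with 4 motifs had slopes of -0.42 (LIN28B), -0.17 (IGF2BP1) and 0.0053 (HMGA2). The AU-rich pentamer ATTTA, counted on the mRNA strand, occurred 3.98 times per kb of 3′ UTR in DICER1, 3.33 in HMGA2, 3.30 in LIN28B, 3.25 in IGF2BP3, 1.64 in IGF2BP1, 0.833 in IGF2BP2 and 0 in HMGA1, with a median of 1.78 over tested genes.

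For each of the 7, the 2 genes of most like course were found among the 8856 genes averaging 100 counts or more, as the root mean square difference in log2 change from 0 h over the 12 libraries. LIN28B was closest to ZNF566 (0.127 log2) and KIAA0232 (0.13), and IGF2BP1 to GPATCH8 (0.0614) and VPRBP (0.0685). HMGA1 was closest to PFN1 (0.0318), which encodes the actin-binding protein profilin, and to the glycolytic gene ALDOA (0.0383). HMGA2 was closest to DLG1 (0.0427) and STARD3NL (0.0558), and DICER1 to TJP1 (0.078) and PCDH7 (0.0791). IGF2BP2 was closest to WDR92 (0.0693) and WDR35 (0.0698), and IGF2BP3 to PATL1 (0.0515) and CC2D1B (0.057). These are descriptions of likeness within the same libraries and carry no test.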

How the data were processed

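RNA was extracted with the Nucleospin kit and libraries were made with the Illumina TruSeq stranded mRNA kit. The table deposited by the authors holds raw read counts by gene symbol, 1 column for each of the 12 libraries. The submitters' processing notes name FastQC, STAR and the genome build hg19. The counter, its annotation and its use of strand are not given in the sources used here. Each column was matched to 1 sample title, with 0 left over.

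Counts were fitted in R 4.3.3 with edgeR 4.0.16 (TMM factors, glmQLFit, glmQLFTest) for genes averaging 10 counts or more, with time in hours as a number for the slope and as 4 groups for the other comparisons. DESeq2 1.42.0 was an alternative. An SE is the estimate over the square root of F, and a half-life is -1 over the slope. The common biological coefficient of variation was 0.0905. Replicates differed by more than sampling noise (chi-square per degree of freedom 3.20 to 8.65). Pair ratios used log2 of the count plus 0.5, and likeness used log2 of CPM plus 0.5. The scripts were tested on simulated data.

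Replicate numbers come from the labels. Deviations from the group means correlated in each of the 18 same-numbered pairs of libraries (r 0.323 to 0.633), so the numbers pair the samples. The blocked value is given where it changes a call. The mean r of -0.224 over 36 differently numbered pairs adds little to this, since the deviations sum to 0 at each time.

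Sequences and lengths are from RefSeq and GENCODE v44 (GRCh38), and no coordinate was joined to the hg19 counts other than through the gene symbol. The 7 genes and the lists were chosen with earlier results of these data known. The text names all 7, for each list the 2 lowest and the 2 highest slopes past the threshold, LIN28A, MYCN and IGF2, and 2 genes of like course for each of the 7. One gene that this rule picks is not reported here. The comparisons of 2 h with 1 h and of 4 h with 2 h were added after the courses were seen.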

Additional observations from a re-analysis of the deposited data

How the results depend on the processing

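DESeq2's test, DESeq2 size factors in edgeR, no filter, and a mean of at least 30 counts were tried. In each, every compared result for the 7 genes kept its direction and its side of the threshold. The pair ratios did so with a pseudocount of 5. For the lists, only the numbers of genes that fell or rose were compared, and these stayed of like size. At a mean of at least 30 counts, ZC3H12A and SALL4 were not tested. With library totals, 5 of the 7 fell by slope and 5 at 4 h against 0 h (39.1% and 38.4% of all tested genes). With GAPDH plus ACTB, 6 fell and 0 rose by slope, at 2 h and at 4 h against 0 h, and 5 fell and 0 rose from 2 to 4 h (64.2%, 34.5%, 63.3% and 40.4% of all tested genes fell, and under 1% rose). By that scaling's construction all genes shift with it. With the replicate block, 1 rose at 1 h against 0 h, 1 rose from 1 to 2 h, and 2 departed from a line (6.18%, 17.0% and 17.2% of all tested genes). Also with the block, IGF2BP2 fell by slope, at 4 h against 0 h and from 2 to 4 h (34.8%, 36.0% and 25.3% of all tested genes). DICER1 then fell at 2 h against 0 h, and IGF2BP3 from 1 to 2 h (26.5% and 20.7%). The block changed no other call of the 7 than those given beside the results, while over all genes it raised the calls at 1 h from 311 to 2005. Leaving out 1 replicate gave 0 to 1 that fell at 1 h, 0 to 1 that rose at 2 h and 0 to 1 that departed from a line. With 0 and 4 h only, 0 pairs differed, since 20 arrangements cannot give a p under 0.1.

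The reversed signs, other than those of HMGA2 (slope) and IGF2BP3 (2 to 4 h) with GAPDH plus ACTB, belong to values past no threshold. The slope of HMGA2 was -0.034 with library totals, -0.13 with GAPDH plus ACTB, -0.031 from 0, 1 and 2 h, and from -0.012 to 0.013 on leaving out 1 replicate. Leaving out 1 replicate gave HMGA2 -0.083 to 0.026 at 4 h against 0 h (0.025 without replicate 3) and -0.011 to 0.040 from 1 to 2 h. With library totals and with GAPDH plus ACTB, HMGA2 had -0.035 and -0.10 from 1 to 2 h and -0.0056 and -0.23 from 2 to 4 h. IGF2BP3 had -0.057 at 1 h with GAPDH plus ACTB. It had 0.0085 at 2 h without replicate 3, and from 2 to 4 h -0.069 with library totals, -0.29 with GAPDH plus ACTB and -0.029 to 0.066 on leaving out 1 replicate. IGF2BP2 had -0.088 at 1 h with GAPDH plus ACTB. LIN28B had -0.15 to 0.094 from 2 to 4 h on leaving out 1 replicate. The cause was not tested.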
